A study of Mus musculus with 112 samples.

Results

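The genes described here are the nuclear-encoded genes of the mitochondrial respiratory chain and ATP synthase on an Illumina mouse bead array. They were taken by symbol: every probe whose symbol starts with Nduf, Uqcr, Atp5, Sdha, Sdhb, Sdhc, Sdhd, or Cox followed by 4, 5, 6, 7 or 8. Among the 45281 probes, which name 28890 genes, the rule took 81 genes, of which 30 have more than 1 probe. By complex these are 35 genes of complex I, 4 of complex II, 7 of complex III, 15 of complex IV and 14 of complex V. A further 6 genes carry such a symbol without being counted as a subunit here: the assembly factors Ndufaf1 and Ndufa12l (now Ndufaf2), Cox7a2l, Atp5s, Atp5sl and Cox4nb. The last is now named Emc8, belongs to a membrane protein complex of the endoplasmic reticulum and is no cytochrome oxidase gene. The rule uses symbols and no measured level, but it was set with earlier results of these data known.

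The study asked whether epiblast stem cells (EpiSC) derived from embryos of different ages are equivalent. Such lines are pluripotent and are grown out of the epiblast, from which the body of the implanted embryo forms. The 18 EpiSC lines came from R1-129 embryos at the cavity (embryonic day 5.5 to 6, 4 lines), prestreak (day 6 to 6.5, 3 lines), late midstreak (day 6.75 to 7.5, 6 lines), early bud (day 7.5 to 8, 2 lines) and late bud stage (day 7.75 to 8.25, 3 lines). They were harvested at passages 10 to 19, mostly as 3 cultures each, and 4 lines had further cultures whose names carry an asterisk that the labels do not explain, called a subline here, which gives 65 arrays of 22 lines and sublines. EpiSC9, an imported 129SvJ line at passage 24, had 3 arrays, and RNA of that line from another laboratory had 1 array that entered no test. The other cells were 3 induced pluripotent (iPSC) lines made from tail tip fibroblasts of (C57BL6xC3H)F1 hybrid mice (9 arrays), 1 embryonic stem cell (ESC) line of the R1-129 strain at passage 22 (3 arrays) and embryonic fibroblasts (MEF) of the ARC/s strain (2 arrays). EpiSC were lifted off a fibroblast layer, so their RNA can hold some of that layer, and ESC and MEF stand for 1 line or cell type each. On a second kind of array, made from linearly amplified RNA, 4 of the EpiSC lines (12 arrays) stood beside 17 single R1-129 epiblasts or ectoderms. These are joined below into early (4 embryos of the cavity and prestreak stages), streak (6 of the late midstreak and late streak stages) and bud (7 of the no bud, early bud and late bud stages). Since iPSC, MEF and EpiSC9 are of other strains than the EpiSC lines, effects of strain and of the cells cannot be told apart there.

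The respiratory chain sits in the inner mitochondrial membrane. Complex I takes electrons from NADH and complex II from succinate, ubiquinone carries them to complex III, cytochrome c carries them on to complex IV, and complex IV reduces oxygen. Complexes I, III and IV pump protons, and complex V, the ATP synthase, uses the proton gradient to make ATP. The mitochondrial genome encodes a few core subunits, and all other subunits are encoded in the nucleus and imported. Naive pluripotent cells (ESC) are known to respire, while primed cells (EpiSC) rely more on glycolysis, and a lower level of cytochrome oxidase genes in mouse EpiSC than in ESC has been described in the field.

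Promoter sequences of 66 of the 81 genes were at hand from RefSeq (GRCm38.p6; 250 bases before to 50 after a gene's start). Binding motifs of factors known to control respiratory genes were searched on both strands as exact letters: GCATGCGC for NRF1, CCGGAAGT for GABP and AAGATGGC for YY1. The NRF1 letters were in 10 of the 66 genes (15.2%), against 3.05% of the 27025 genes with a promoter. The YY1 letters were in 11 (16.7%), against 3.19%, and the GABP letters in 4 (6.06%), against 4.31%. A match is a description of the letters and not a site of binding. The promoters of 4 genes that the results below turn on are shown, with motif letters in capitals and the gene's own strand throughout. They are Uqcrc1 (chr9:108936398-108936697, plus strand), Cox6a1 (chr5:115348909-115349208, minus strand), Ndufs4 (chr13:114388045-114388344, minus strand) and Cox7a1 (chr7:30183921-30184220, plus strand). The NRF1 letters occur on both strands of Uqcrc1 and of Cox6a1, where the 2 matches share 6 bases. Ndufs4 holds 1 YY1 match, and Cox7a1 holds none of these letters in this window.
Uqcrc1: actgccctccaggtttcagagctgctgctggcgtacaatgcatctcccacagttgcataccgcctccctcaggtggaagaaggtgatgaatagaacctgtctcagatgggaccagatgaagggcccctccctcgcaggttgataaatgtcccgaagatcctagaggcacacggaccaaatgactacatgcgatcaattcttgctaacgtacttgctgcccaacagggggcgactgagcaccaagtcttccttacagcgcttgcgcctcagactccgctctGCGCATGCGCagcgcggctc
Cox6a1: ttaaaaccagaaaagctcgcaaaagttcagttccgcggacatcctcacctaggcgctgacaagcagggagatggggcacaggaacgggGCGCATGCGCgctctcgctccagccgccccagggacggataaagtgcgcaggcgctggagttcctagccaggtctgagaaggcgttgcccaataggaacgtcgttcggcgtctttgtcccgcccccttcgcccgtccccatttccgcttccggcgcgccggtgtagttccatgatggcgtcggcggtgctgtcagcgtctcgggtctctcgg
Ndufs4: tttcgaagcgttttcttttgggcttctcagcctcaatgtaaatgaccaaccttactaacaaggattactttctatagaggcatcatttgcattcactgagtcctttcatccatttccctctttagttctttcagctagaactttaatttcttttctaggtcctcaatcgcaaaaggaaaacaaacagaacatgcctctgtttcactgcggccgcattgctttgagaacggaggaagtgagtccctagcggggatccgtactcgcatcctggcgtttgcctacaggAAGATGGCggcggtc
Cox7a1: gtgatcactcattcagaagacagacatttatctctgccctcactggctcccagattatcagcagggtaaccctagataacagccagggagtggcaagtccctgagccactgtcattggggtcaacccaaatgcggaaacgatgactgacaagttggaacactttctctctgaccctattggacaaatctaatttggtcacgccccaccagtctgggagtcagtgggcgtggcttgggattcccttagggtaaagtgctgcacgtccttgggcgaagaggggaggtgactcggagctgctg

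Levels are log2 intensities after background correction and normalization, and 1 probe, the one with the highest mean, stands for each gene. Such levels are not set against each other between genes. A probe counts as detected on an array when its detection p-value, from the array's negative control beads, is under 0.01. Of the 81 genes, 60 were detected on every one of the 112 arrays and 7 on none (Ndufs1, Sdha, Uqcrfs1, Uqcrq, Cox7b2, Cox8b and Cox8c). For the tests, 74 genes entered among not amplified arrays and 72 among amplified arrays, each detected on at least 3 arrays. A gene is called when its p-value from limma, adjusted over all genes tested, is under 0.05. The unit was the line or the embryo, so p-values describe the spread between these lines or embryos. In such bulk samples fewer cells of a type and less RNA per cell cannot be told apart. Between 33.7 and 41.1% of probes were detected on EpiSC arrays, 35.2 to 37.3% on iPSC, 35.3 to 36.3% on ESC and 32.7 to 33.7% on MEF arrays. On amplified arrays the share was 24.6 to 32.7% for EpiSC, 25.4 to 28% for early, 24.7 to 29% for streak and 21.3 to 25.2% for bud epiblasts. Of 7 tested markers of naive pluripotency, 6 were called lower in EpiSC against ESC and 7 against iPSC. The labels also left 2 doubts: iPSC line 3 correlated at 0.997 with ESC over all probes, against 0.967 to 0.976 for iPSC lines 1 and 2, and the descriptions of epiblasts early bud 3 and late bud 3 call them cultured cells. Patterns of probes without signal split the arrays into 7 sets, and the ESC and iPSC arrays formed a set that held no other cell, so for EpiSC against ESC or iPSC the array set cannot be told apart from the cells.

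As a description with no test, the mean over the tested genes of complex I was 11.08 ± 0.07 in the EpiSC lines (SD, n = 18), 11.18 in EpiSC9, 11.09 ± 0.12 in iPSC (n = 3), 10.94 in ESC and 10.97 in MEF. Complex IV was at 9.84 ± 0.17 in the EpiSC lines, with LB3 (9.57) the lowest and CAV1 (10.32) the highest, 10.12 in EpiSC9, 10.20 ± 0.16 in iPSC, 10.01 in ESC and 9.73 in MEF. Complex III was at 11.66 ± 0.09 in the EpiSC lines, 11.64 in EpiSC9, 11.75 ± 0.03 in iPSC, 11.76 in ESC and 11.16 in MEF. Complex V was at 11.63 ± 0.10 in the EpiSC lines, 11.68 in EpiSC9, 11.71 ± 0.02 in iPSC, 11.70 in ESC and 11.41 in MEF. For complex I both ESC and MEF lay below every EpiSC line, of which LMS6, at 10.98, was the lowest. MEF also lay below every EpiSC line for complex III, where the lowest line, LB3, was at 11.46. That gap rests mainly on the gene Uqcrb, with a log2 difference of 2.15 (EpiSC minus MEF). The median difference of the 5 complex III genes was 0.02, with 3 genes above 0 and 2 below. For complex V, MEF lay below every EpiSC line too, where the lowest, LMS6, was at 11.50. For complex IV MEF lay within the EpiSC range.

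Against ESC, 11 of 74 genes were called, 7 higher in EpiSC (9.46%) and 4 lower (5.41%). Over all 15032 genes tested, 13.1% were called higher and 13.2% lower, so the chain's shares were not above the background. Its median log2 difference was 0.02, and that of all genes was 0.02. In complex I, 6 of 34 tested genes were higher and 0 lower. Complex III had 1 higher and 1 lower of 5, complex IV 1 lower of 12, and complexes II and V had no call among 3 and 14 genes. The remaining 2 lower calls were Atp5sl and Cox4nb.

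Ndufc2, an accessory subunit of the membrane arm of complex I, ranged over the 18 EpiSC lines from 11.95 (CAV1) through a median of 12.38 to 12.63 (LMS5), against 11.49 in ESC. Every EpiSC line lay above ESC, and the log2 difference was 0.87 ± 0.18 (SE; adjusted p = 0.000872). Ndufs4, a subunit of the electron input arm whose loss causes Leigh-like disease in mice, ranged from 12.18 to 12.52 with a median of 12.36 in EpiSC, against 11.87 in ESC. Again no line reached down to ESC, with a difference of 0.48 ± 0.12 (adjusted p = 0.00467). Ndufa12, an accessory subunit of that arm, was at 11.50 to 12.64 in EpiSC, with a median of 11.99, against 11.09 in ESC, a difference of 0.93 ± 0.25 (adjusted p = 0.00875). Ndufa2 (0.44 ± 0.12) and Ndufb7 (0.71 ± 0.23) also passed the test.

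The largest difference of complex I was that of Ndufb10, 1.18 ± 0.31 (adjusted p = 0.00706), and it depends on the probe. Its probe with the higher mean averaged 9.20 ± 0.21 in EpiSC (SD, n = 18 lines), against 8.02 in ESC. The 3 iPSC lines did not sit together: lines 1 and 2 were at 9.20 and 9.22, next to the EpiSC, and line 3 at 7.98, next to ESC. A second Ndufb10 probe was at 5.44 ± 0.31 in EpiSC, 5.38 and 5.29 in iPSC lines 1 and 2, 9.53 in iPSC line 3 and 9.63 in ESC. That probe was thus called in the opposite direction, by -4.18 ± 0.79 (adjusted p = 0.000432). The same split by probe was seen for Cox7a2l, which helps to join complexes III and IV into supercomplexes. Its main probe was at 11.59 ± 0.23 in EpiSC, 11.65 in iPSC lines 1 and 2, 11.29 in iPSC line 3 and 11.36 in ESC, and its second probe at 6.41 ± 0.51, then 6.75 and 6.78, then 10.71 and 10.64. Of the 23 genes with more than 1 tested probe, Ndufb10 was the one called both ways in this comparison. What the second probes measure was not tested.

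Uqcrc1, a core protein of complex III, was lower in EpiSC. It ranged from 11.45 (EB1a) through a median of 11.62 to 11.78 (LMS2) in the EpiSC lines, against 12.16 in ESC, 11.68 in MEF and 11.84 in EpiSC9. The EpiSC and ESC values did not overlap, and the difference was -0.53 ± 0.11 (adjusted p = 0.00117). Uqcrh, the hinge protein at the cytochrome c site of the same complex, moved the other way by 0.30 ± 0.11 (adjusted p = 0.0461). In complex IV, Cox5a, a subunit on the matrix side, was lower by -0.40 ± 0.12 (adjusted p = 0.0144). Cox7a1, the heart and muscle isoform of subunit 7a, gave the lowest difference of complex IV, -1.05, without passing the test (adjusted p = 0.0704). Outside the complexes, Cox4nb differed by -1.46 ± 0.33 with its main probe and by -1.10 ± 0.40 with the second. In a fit with single cultures as the unit and the array set as a random block, 24 genes were called. Of these, 14 were higher and 10 lower, beside 37.9% of all genes in both directions together. That fit left the line out, so cultures of 1 line counted as independent.

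**Figure D1:**
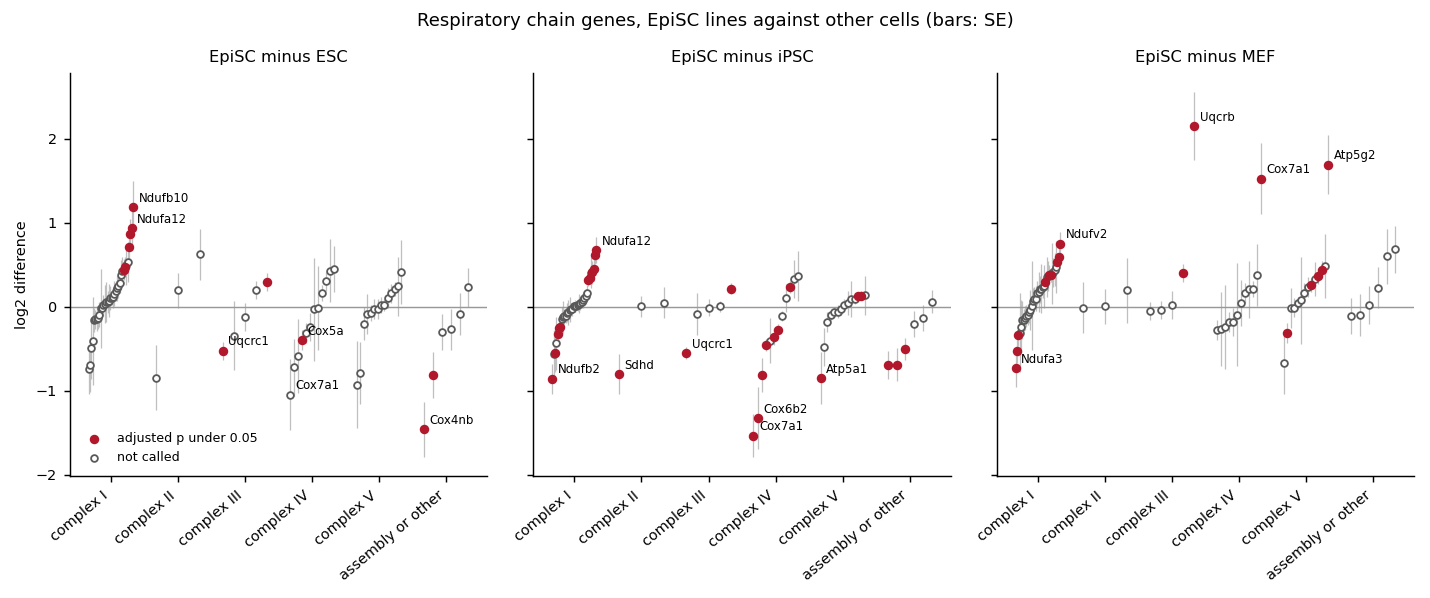
log2 difference of each tested gene (points) with its standard error (bars), EpiSC lines minus ESC, iPSC and MEF, sorted within each complex on the x axis. Filled points passed the test at an adjusted p of 0.05. In EpiSC minus ESC the calls of complex I all lie above 0 (6 of 34), and in EpiSC minus iPSC 6 of the 7 calls of complex IV lie below 0.

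Against the iPSC lines, many cytochrome oxidase genes were lower. EpiSC had lower levels of 6 of 12 tested complex IV genes and a higher level of 1, whereas complex I was split, with 6 higher and 5 lower of 34. Over all 74 genes, 10 were called higher (13.5%) and 17 lower (23%), beside 21.9% higher and 20.4% lower among all 15032 genes. The median log2 difference was -0.03 for the chain and -0.32 for complex IV, against 0.00 for all genes. Complex III had 1 call each way of 5, complex V 2 higher and 1 lower of 14, and complex II 1 lower of 3.

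Cox7a1 was at 7.18 (LMS4) to 8.57 (CAV1) in EpiSC, with a median of 7.80, against 9.63, 9.60 and 8.76 in iPSC lines 1 to 3. With sublines averaged into their lines, all EpiSC lines lay below all iPSC lines. Without its subline, however, line CAV2 averaged above iPSC line 3, though below iPSC lines 1 and 2. The mean of Cox7a1 over the EpiSC lines was 2.90-fold lower (log2 difference -1.54 ± 0.26, adjusted p = 4.80e-05). Its widely expressed paralog Cox7a2 was lower too, at 7.57 to 8.91 with a median of 8.11, against 9.03, 8.87 and 8.85. Only EpiSC line LMS1, the highest, entered the iPSC range, and the difference was -0.82 ± 0.21 (adjusted p = 0.00287). Cox6b2, the testis isoform of subunit 6b, differed by -1.33 ± 0.37 (adjusted p = 0.00633). Its iPSC values were 10.38, 10.37 and 8.73, against which the EpiSC lines spanned 7.38 to 9.26, so iPSC line 3 lay within the EpiSC range. The paralog Cox6b1 was higher in EpiSC by 0.24 ± 0.07. Cox5a (-0.46 ± 0.07), Cox6a1 (-0.36 ± 0.10) and Cox4i1 (-0.27 ± 0.07), the last 2 the ubiquitous isoforms of their subunits, were the other lower calls of the complex.

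In complex I, Ndufa12 (0.67 ± 0.15), Ndufc2 (0.62 ± 0.11), Ndufb11 (0.45 ± 0.14), Ndufb7 (0.41 ± 0.14), Ndufa2 (0.34 ± 0.08) and Ndufs4 (0.32 ± 0.07) were higher in EpiSC than in iPSC. Ndufs4 was at 12.05, 12.08 and 11.96 in the iPSC lines, all below the lowest EpiSC line. Lower in EpiSC were Ndufb2 (-0.86 ± 0.18), Ndufb5 (-0.56 ± 0.22), Ndufv1, which carries the NADH and flavin site (-0.33 ± 0.09), Ndufb6 (-0.25 ± 0.07) and Ndufa7 (-0.24 ± 0.09). The other lower calls included Uqcrc1, -0.55 ± 0.07 (adjusted p = 7.26e-07), Sdhd, the small membrane anchor of complex II (-0.80 ± 0.23), and Atp5a1, the alpha subunit of the ATP synthase head (-0.85 ± 0.31). Uqcrc1 was at 12.18, 12.23 and 12.14 in the iPSC lines, all above the highest EpiSC line. The beta and gamma subunit genes Atp5b and Atp5c1 were higher by 0.12 ± 0.04 and 0.13 ± 0.05. EpiSC were compared with ESC and with iPSC in 1 fit that uses the same EpiSC lines, so the 2 comparisons share them. Without iPSC line 1, 16 genes were called in place of 27, with 6 higher and 10 lower, beside 33.8% of all genes in both directions together.

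**Figure D2:**
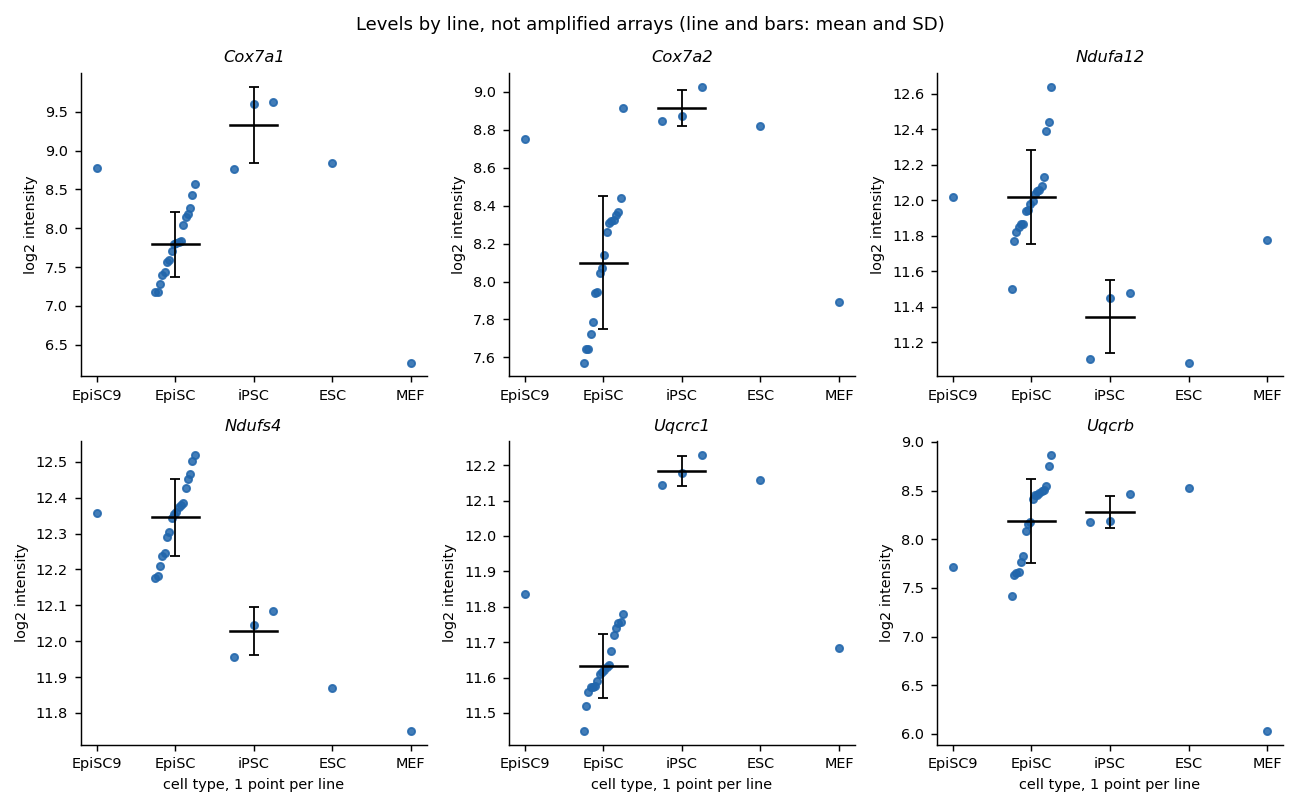
log2 intensity (y axis) of 6 genes in each line of not amplified arrays, 1 point per line, with the mean and SD where a cell type has more than 1 line. Cox7a1 is highest in iPSC lines 1 and 2 (9.63 and 9.60) and lowest in MEF (6.27), Ndufs4 and Ndufa12 are higher in EpiSC than in iPSC and ESC, and Uqcrc1 lies between 11.45 and 11.78 in all EpiSC lines.

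No gene of the chain passed the adjusted threshold between iPSC and ESC. With limma, 0 of 74 genes were called higher and 0 lower, beside 0% in each direction of all 15032 genes. At an unadjusted p under 0.05 there were 4 genes of the chain and 1173 of all genes. The median log2 difference was 0.09 for the chain and 0.01 for all genes. Cox6b2 was at 10.38, 10.37 and 8.73 in iPSC lines 1 to 3 and 8.53 in ESC, so line 3 lay close to ESC and lines 1 and 2 did not, as for Ndufb10. Without iPSC line 3, 5 genes were called, 4 higher and 1 lower in iPSC, beside 9.05% of all genes in both directions together. With single cultures as the unit and the array set as a random block, 8 were called, beside 11.7%. The line was left out of that fit.

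EpiSC9 also gave 0 calls among 74 genes with limma in either direction, beside 1.33% higher and 0.339% lower among all genes, and 12 genes of the chain and 1891 of all genes at an unadjusted p under 0.05. The smallest p-values belonged to Ndufa12l (-0.87 ± 0.25, adjusted p = 0.0792) and Ndufa5 (-0.53 ± 0.15, adjusted p = 0.0849). Cox7a1 was at 8.77 in EpiSC9, above the highest of the 18 EpiSC lines with sublines averaged in. Line CAV2 without its subline averaged above EpiSC9 for this gene. Without the cultures numbered 1, 5 genes were called, beside 2.36% of all genes. With single cultures as the unit and the array set as a random block, 18 were called, beside 16.5%. The line was left out of that fit.

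Against MEF, 13 of 74 genes were higher in EpiSC (17.6%) and 4 lower (5.41%), beside 22.3% higher and 20.9% lower among all genes, so neither share was above the background. The median log2 difference of the chain was 0.13, against 0.11 for all genes. By complex, calls were 6 higher and 3 lower of 34 in complex I, 2 higher of 5 in complex III, 1 higher of 12 in complex IV, and 4 higher and 1 lower of 14 in complex V.

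Uqcrb, a subunit at the ubiquinone site of complex III, was at 7.41 (LB3) to 8.86 (CAV4) in EpiSC, with a median of 8.29, against 6.03 in MEF. No line came near MEF, and the mean was 4.44-fold higher (log2 difference 2.15 ± 0.41, adjusted p = 0.000196). Atp5g2, 1 of the genes for the rotating c ring of the ATP synthase, was higher by 1.69 ± 0.35 (adjusted p = 0.00045). Cox7a1 was higher by 1.52 ± 0.42 (adjusted p = 0.00569), with MEF at 6.27 and the lowest EpiSC line at 7.18. In complex I, Ndufv2 (0.75 ± 0.14), Ndufs4 (0.59 ± 0.12) and Ndufs6 (0.53 ± 0.11), all of the electron input arm, were higher, and Ndufa3 (-0.73 ± 0.23), Ndufa8 (-0.52 ± 0.15) and Ndufa13 (-0.34 ± 0.12) lower. Atp5l, the g subunit of the synthase's membrane part, was lower by -0.31 ± 0.12. For Atp5j and Ndufb8 the main probe was called higher (0.44 and 0.37) and a dimmer second probe lower (-1.44 and -2.50). Fibroblast markers, summed over 10 genes, lay at 11.7 to 14.6 (log2) on EpiSC arrays and 15.7 to 15.8 on MEF arrays. The part of the layer's RNA in these values was not tested. Within the array set that held both, from 5 EpiSC lines and MEF, 15 genes were called, 10 higher and 5 lower, beside 45.1% of all genes in both directions together.

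Across the 22 lines and sublines, limma's moderated F test over 65 cultures called 69 of 74 genes (93.2%), beside 92.9% of the 14340 genes tested, so the chain's share was that of the background. Lines LMS1 (array set 2), EB1a and EB1b (set 3) and PS4 (set 5) lay in a single array set each. So did CAV2, CAV3 and LB1 without their sublines (set 2) and LMS2 without its subline (set 1). The sublines of CAV2, LMS2 and LB1 all lay in set 3. For all of these, line or subline and array set cannot be told apart. With the array set as a random block the F test called 64 genes, beside 90.5% of all genes. In the F test without that block, the 5 that were not called were Ndufa4, Ndufa8, Ndufs6, Cox5b and Atp5b. Their lowest and highest line means were no more than 0.40 apart, but some called genes spanned as little, such as Ndufa9 (0.29). The smallest p-values belonged to Uqcrb, Cox6b2, Atp5g2, Cox4i2 and Sdhc. Uqcrb spanned 1.83 between LB3 (7.41) and CAV3 without its subline (9.24), with an SD of 0.20 between cultures of a line and 0.51 between lines. These CAV3 arrays lay in set 2 and the LB3 arrays in sets 1 and 5. Cox6b2 spanned 2.61 between LB3 (7.38) and CAV2 without its subline (9.99), the widest range among those 5. The 3 CAV2 cultures were at 9.64, 9.99 and 10.34 and the 3 of its subline at 8.60, 8.13 and 8.36, without overlap. They lay in array sets 2 and 3, so subline and set cannot be told apart for them. Atp5g2 spanned 1.87, from PS4 to CAV1, and Sdhc, the large membrane anchor of complex II, 1.11, from LMS1 to LMS3.

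Among the tissue-restricted isoforms, Cox4i2, the lung isoform of subunit 4 known to respond to oxygen, was detected on 7 of 65 EpiSC arrays and 2 of 3 EpiSC9 arrays, and on no iPSC, ESC, MEF or epiblast array. Its level was 6.10 in line CAV1 and 5.47 in CAV2, against 4.44 to 4.87 in the other 16 EpiSC lines, close to background. Within CAV2 the cultures were at 5.81, 6.18 and 6.90 and those of the subline at 4.57, 4.99 and 4.35. Its ubiquitous paralog Cox4i1 was at 12.93 to 13.43 in all of them. Cox6a2, the heart and muscle isoform, was detected on 22 of 65 EpiSC arrays, 0 of 9 iPSC, 1 of 3 ESC and 1 of 2 MEF arrays, beside its paralog Cox6a1 on all. Cox7a1 and Cox6b2 were detected on every array, and Cox7b2, Cox8b and Cox8c on none.

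For the stage of origin the F test over 18 line means called 0 of 74 genes with limma, beside 0.0139% of 14340 genes (2 genes), and 6 genes of the chain and 1179 of all genes at an unadjusted p under 0.05. The 5 smallest p-values were those of Ndufa12 (adjusted p = 0.457), Atp5d, Cox7a1, Uqcr and Ndufa1. Cox7a1 had stage means of 7.23 (early bud) to 8.25 (cavity), with an adjusted p of 0.571, a range of 1.02 that did not pass against the spread between lines of a stage.

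A group of 9 genes rose and fell together over the 18 EpiSC lines. It was chosen after its values were seen, as the genes linked by a correlation over 0.9, and holds Ndufab1, Ndufb4, Ndufb5 and Ndufb9 of complex I, Sdhd of complex II, Cox7a2 and Cox7b of complex IV, and Atp5a1 and Atp5e of complex V. Their 36 pairs had r of 0.724 to 0.964 (median 0.904), against a median of 0.0964 over all 2701 pairs of the 74 genes. The line means of the 9 genes lay between 7.03 (LMS4) and 8.40 (LMS1), with the median line at 7.5. The levels moved with the array set: the 14 EpiSC arrays of set 2 had means of 7.73 to 8.50, the 15 of set 3 7.49 to 7.99, the 12 of set 5 7.35 to 7.93 and the 19 of set 1 6.31 to 8.12. Cultures of 1 line in different sets differed likewise, as in LMS4, at 7.83 on its set 5 array against 6.94 and 6.31 on its set 1 arrays. The correlation with the share of probes detected was 0.259 over the 65 arrays. The part of the array set in this pattern was not tested. Since the 9 were chosen for varying together, their calls, here and below, are not independent of each other. Of the 9, 4 were called lower in EpiSC than in iPSC, beside 20.4% of all genes. In EpiSC against ESC or MEF 0 were called. Of all genes, 13.1% were higher and 13.2% lower against ESC, and 22.3% and 20.9% against MEF.

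**Figure D3:**
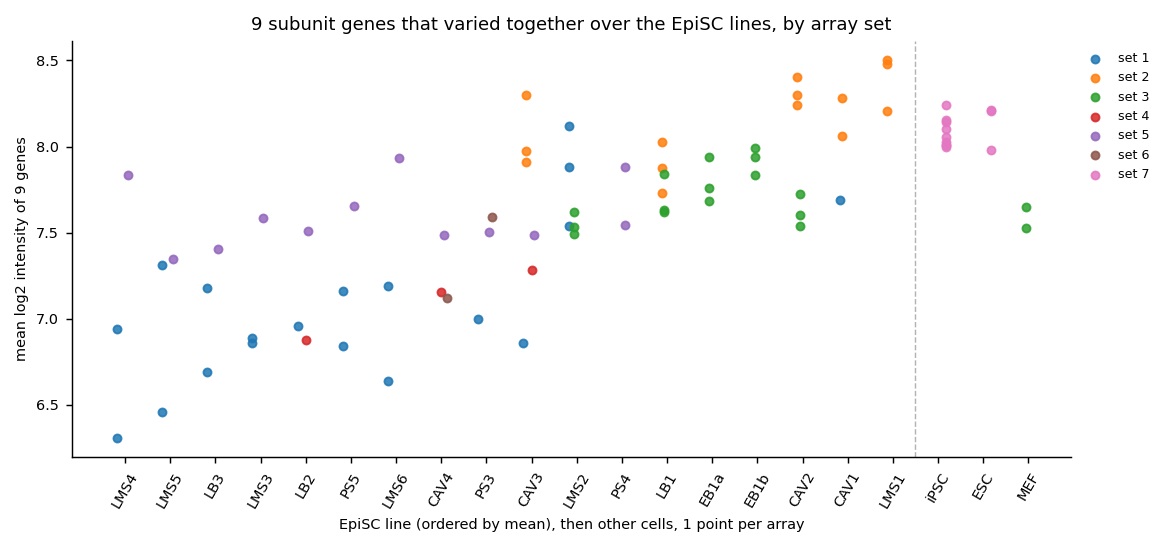
Mean log2 intensity of the 9 genes that varied together (y axis) on each not amplified array, by EpiSC line in order of the line mean and then for iPSC, ESC and MEF (x axis), coloured by array set. The arrays of set 2 (7.73 to 8.50) lie above most arrays of set 1 (6.31 to 8.12), and iPSC (8.0 to 8.24) and ESC (7.98 to 8.21) share set 7.

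Among single epiblasts, bud against early gave 6 genes higher (8.33% of 72) and 10 lower (13.9%), beside 17.9% higher and 16% lower among the 12020 genes tested, so both shares were below the background. Bud against streak gave 12 higher (16.7%) and 14 lower (19.4%), beside 15.9% higher and 15.5% lower of all genes. Streak against early gave 1 higher and 0 lower, beside 3.91% higher and 2.39% lower. The median log2 difference was 0.03 in bud against early (all genes 0.08), -0.02 in bud against streak (all genes 0.08) and -0.03 in streak against early (all genes 0.03). The calls fell in every complex: in bud against early, 4 higher and 4 lower of 33 in complex I, 1 lower of 3 in complex II, 1 lower of 5 in complex III, 1 each way of 11 in complex IV, and 1 higher and 2 lower of 14 in complex V.

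Atp5d, the delta subunit of the central stalk of the ATP synthase, was at 12.02 in no bud 1, 9.45, 9.94 and 9.09 in the 3 early bud embryos and 11.09, 9.33 and 9.13 in the 3 late bud embryos. Early embryos were at 12.43, 12.71, 12.32 and 12.40. All bud embryos lay below all early ones, with no bud 1 and late bud 1 nearest to them, and the difference was -2.46 ± 0.40 (adjusted p = 6.90e-05). Sdhb, the iron-sulfur subunit of complex II, was at 8.34 to 9.92 in bud and 10.07 to 10.48 in early embryos. The groups did not overlap, with a difference of -1.08 ± 0.32 (adjusted p = 0.0123).

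Cox6a1 was lower as well (-1.54 ± 0.34, adjusted p = 0.00131). It was at 12.56 in no bud 1 and 10.21 to 10.94 in the other 6 bud embryos, against 12.20 to 12.67 in the early ones, so no bud 1 fell within the early range. Ndufc2 differed by -1.59 ± 0.43 and Uqcrc1 by -0.82 ± 0.26. Atp5f1 (now Atp5pb), of the synthase's outer stalk, was called lower but was detected in only 2 of 7 bud embryos, against 4 of 4 early ones, so the size of its difference is not given. A dimmer probe of Atp5f1 was 1.31 ± 0.60 higher without passing against early and was called higher by 2.0 ± 0.53 against streak. Cox4nb differed by -3.63 ± 0.51 (adjusted p = 1.66e-05), the lowest estimate among these genes, and by -0.90 with its second probe. Its main probe was detected in only 4 of 7 bud embryos, against 4 of 4 early ones, so the first value is partly set by background.

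Higher in bud than early embryos were Ndufb4 (1.38 ± 0.36) and Ndufb8 (0.38 ± 0.13) of the membrane arm, Ndufv2 (0.72 ± 0.17) and Ndufs6 (0.57 ± 0.17) of the input arm, Atp5j2 (0.72 ± 0.20) and Cox7b (1.02 ± 0.37). Cox7b was at 6.5 in no bud 1 and at 8.19 to 9.30 in the other 6 bud embryos, against 7.0 to 8.01 in the early ones. The other 6 bud embryos were all above the early ones, and no bud 1 was below them. Against streak embryos, Ndufb4 (1.81 ± 0.32), Ndufab1 (1.62 ± 0.50), Cox7b (1.45 ± 0.33), Ndufb9 (1.16 ± 0.41) and Cox7a2 (1.01 ± 0.34) led the higher calls. Ndufb4 and Ndufab1 were each detected in 4 of 6 streak and 6 of 7 bud embryos, so the sizes of their differences are partly set by background. Over the alternative settings of the processing, Ndufb9 kept its call in 7 of 17 (adjusted p up to 0.303) and Cox7a2 in 8 of 17 (adjusted p up to 0.286). Of the 9 genes that varied together in the EpiSC lines, 7 were among those higher in bud than streak, beside 15.9% of all genes. Ndufb5, 1 of the 7, kept its call in 8 of 17 alternative settings (adjusted p up to 0.462). The mean of the 9 genes was 7.10 in no bud 1 and 9.16 to 10.05 in the other 6 bud embryos. It was 7.69 to 8.56 in streak embryos, so no bud 1 lay below every streak embryo. Of the 9 genes, Ndufab1, Ndufb4, Sdhd, Cox7b and Atp5e were each detected in 6 of 7 bud embryos. Low bud values of these genes, and of the mean, can thus be partly set by background. Ndufa12 was the gene called in streak against early (1.01 ± 0.22, adjusted p = 0.00597), at 12.92, 12.69 and 12.50 in the late streak embryos, 11.73, 11.93 and 12.23 in the late midstreak embryos and 11.21 to 11.45 in the early ones.

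These counts moved with single embryos. Without no bud 1, 30 genes were called in bud against early (40.9% of all genes), without all embryos numbered 2 it was 3 (10.2%) and without all numbered 3 it was 9 (24.4%). In bud against streak, 17 were called without early bud 3 (24.7% of all genes), 15 without late bud 2 (24.8%), 17 without late bud 3 (25.9%), and 8 without both early bud 3 and late bud 3 (17.6%). Without the embryos numbered 1, or those numbered 2, the call of Ndufa12 in streak against early was lost. Beside these results, markers of other tissue differed between the stages. Both tested extraembryonic ectoderm markers of 6 were higher in bud than early embryos, and the summed level of the list was 11.0 to 13.0 in bud, against 8.18 to 8.50 in early ones, with 4 of the 6 markers detected in no bud embryo. Core pluripotency markers were lower in bud (2 of 3 called), at a summed 9.83 to 11.7, against 11.8 to 12.4 in early embryos. Their part in the result was not tested.

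**Figure D4:**
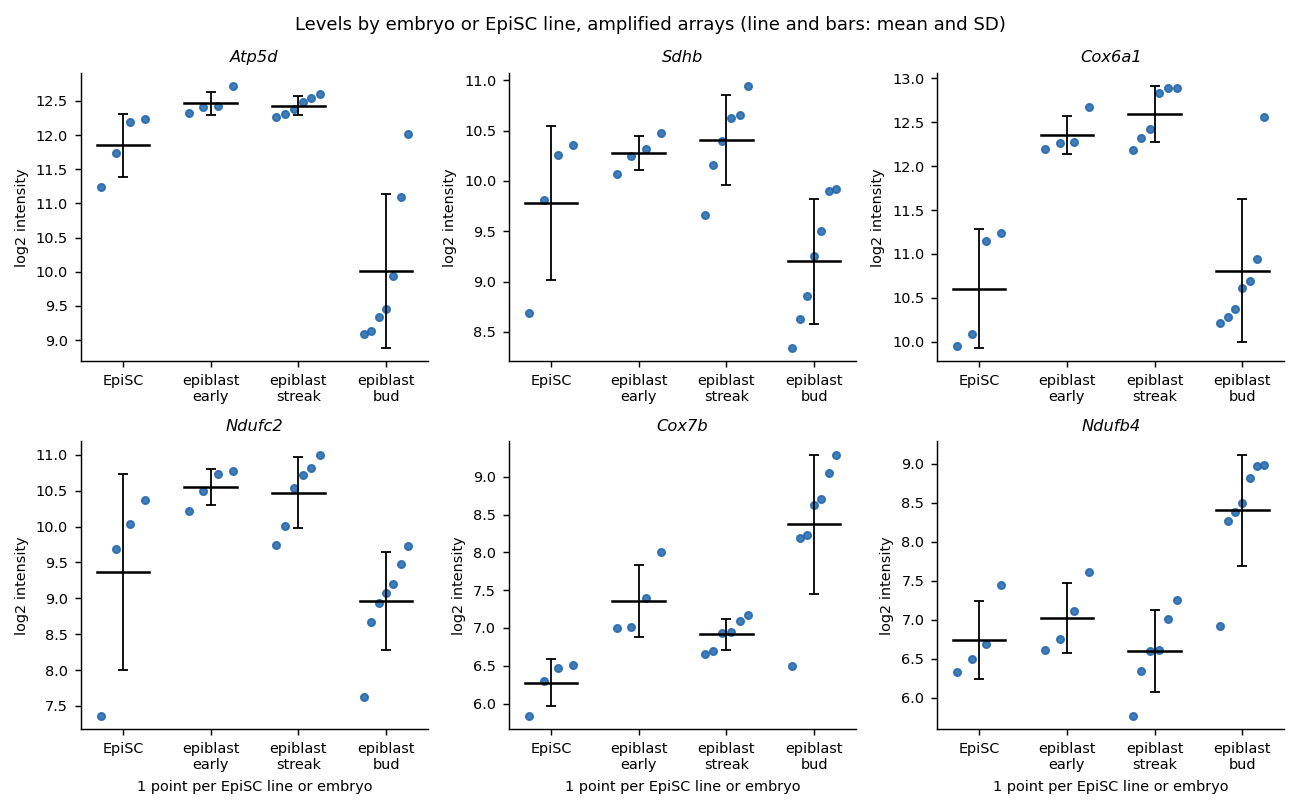
log2 intensity (y axis) of 6 genes on amplified arrays, 1 point per EpiSC line (4) or single embryo (4 early, 6 streak, 7 bud), with mean and SD. Most bud embryos lie below the early and streak embryos for Atp5d, Sdhb, Cox6a1 and Ndufc2 and above them for Cox7b and Ndufb4, with 1 bud embryo (no bud 1) at 12.02 for Atp5d, 12.56 for Cox6a1 and 6.5 for Cox7b.

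On amplified arrays, EpiSC had lower levels of many genes of the chain than the epiblasts of any period. Against early epiblasts 22 of 72 genes were lower (30.6%) and 3 higher (4.17%), beside 14.9% lower and 21.8% higher among all 12020 genes. Against streak it was 24 lower (33.3%) and 3 higher (4.17%), beside 13.1% and 18.7%, and against bud 29 lower (40.3%) and 7 higher (9.72%), beside 20.9% and 23.3%. The median log2 difference of the chain was -0.57, -0.55 and -0.47 in that order, against 0.00, -0.03 and 0.02 for all genes. The 3 comparisons share the same 4 EpiSC lines. By complex, lower calls against early, streak and bud were 12, 12 and 13 of 33 in complex I (36.4, 36.4 and 39.4%), 2 of 5 each time in complex III (40%), 27.3, 27.3 and 36.4% of 11 in complex IV and 21.4, 28.6 and 50% of 14 in complex V.

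The mean over the tested genes of complex I was 10.72 ± 0.27 in EpiSC (SD, n = 4), against 11.23 ± 0.15 in early (n = 4), 11.24 ± 0.05 in streak (n = 6) and 11.18 ± 0.29 in bud epiblasts (n = 7). For complex V it was 11.03 ± 0.26 in EpiSC, against 11.58 ± 0.09, 11.58 ± 0.04 and 11.37 ± 0.22. Complex III was at 11.63 ± 0.34 in EpiSC and 12.01 ± 0.08, 12.08 ± 0.17 and 11.91 ± 0.21 in the epiblasts, and complex IV at 10.19 ± 0.06, against 10.50 ± 0.21, 10.50 ± 0.16 and 10.61 ± 0.27. These means are given as a description. LMS3 was the lowest of the 4 EpiSC lines for complexes I, III and V.

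Cox6a1, the ubiquitous isoform of subunit 6a, was at 10.08, 11.23, 9.96 and 11.14 in CAV2, PS5, LMS3 and LB2. All 4 lines were below every early and streak embryo (12.19 at the lowest), by -1.75 ± 0.38 against early (adjusted p = 0.000984) and -1.99 ± 0.35 against streak (adjusted p = 0.000134), while bud embryos spanned 10.21 to 12.56. PS5 and LB2 lay within the bud range and CAV2 and LMS3 below it, and against bud the difference of -0.21 ± 0.34 did not pass the test (adjusted p = 0.645). Atp5k, the e subunit of the synthase's membrane part, was at 5.04 to 7.02 in EpiSC, against 7.58 to 8.53 in early, 7.62 to 9.27 in streak and 7.03 to 8.95 in bud epiblasts. It was called lower in all 3 comparisons. It was detected on 7 of the 12 EpiSC arrays and in every epiblast, so the EpiSC values are partly background and the size of the difference is not given. Cox7a2 was at 7.88 to 8.59 in EpiSC and at 9.23 to 9.94 in early epiblasts, and was lower by -1.36 ± 0.43 against early, -1.32 ± 0.39 against streak and -2.33 ± 0.38 against bud. Ndufc1, of the membrane arm, was lower by -1.44 ± 0.38, -1.22 ± 0.35 and -1.33 ± 0.34 in the same order.

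Further members lower against every period were Ndufa2, Ndufa4 (now usually placed in complex IV), Ndufa5, Ndufa8, Uqcrh, Uqcr and Ndufa12l. Ndufa12 was lower against streak (-1.40 ± 0.22, adjusted p = 4.20e-05) and bud (-0.89 ± 0.21). Higher in EpiSC than in bud epiblasts were Atp5d (1.84 ± 0.40) and Ndufa9 (1.45 ± 0.36), with Ndufv1 (0.49 ± 0.15) and Ndufa13 (0.46 ± 0.18), the last of which kept its call in 7 of 21 alternative settings (adjusted p up to 0.131). All 9 genes of the group that varied together were lower in EpiSC than in bud epiblasts, beside 20.9% of all genes. These calls are not independent, and Ndufab1, 1 of the 9, was detected on 3 of 12 amplified EpiSC arrays. Of the 9, 5 were lower than in early (beside 14.9%) and 1 lower than in streak epiblasts (beside 13.1%). Ndufv2 was higher than in early epiblasts (0.56 ± 0.20) and Cox6b2 higher than in streak (0.93 ± 0.34). These calls were kept in 8 of 17 settings for Ndufv2 (adjusted p up to 0.195) and in 7 of 13 for Cox6b2 (adjusted p up to 0.171).

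Atp5s (now Dmac2l), also known as coupling factor B of the synthase, was detected on 12 of 12 amplified EpiSC arrays and on no epiblast array. Its EpiSC line values of 7.34, 7.54, 7.15 and 7.01 lay above all embryos, of which the highest was at 6.68. It was at least 1.70-fold higher than in early, 1.93-fold than in streak and 1.25-fold than in bud epiblasts, with each embryo set to its lowest detected signal or to the gene's own value where that was higher (adjusted p = 0.00039, 0.00142 and 0.00142). Cox6a2 was also called higher against all 3 periods, and was detected on 5 of the 12 EpiSC arrays and in no epiblast. Fibroblast markers moved with these comparisons: 8 of 8 tested were higher than in early epiblasts, and the sum of the 10 was 12.2 to 13.6 on EpiSC arrays, against 9.22 to 9.40 in early, 9.33 to 10.3 in streak and 9.72 to 11.3 in bud epiblasts. Of the 10 markers, 8 were detected in no early epiblast. The part of the fibroblast layer was not tested. Without line LMS3, 16 genes were called against early in place of 25 (34.1% of all genes) and 16 against streak in place of 27 (26.5%). Without the epiblast cavity 1, 16 were called against early (33.6%), and without all samples numbered 2, 6 against early (19.2%), 15 against streak (21.3%) and 22 against bud (31%).

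**Figure D5:**
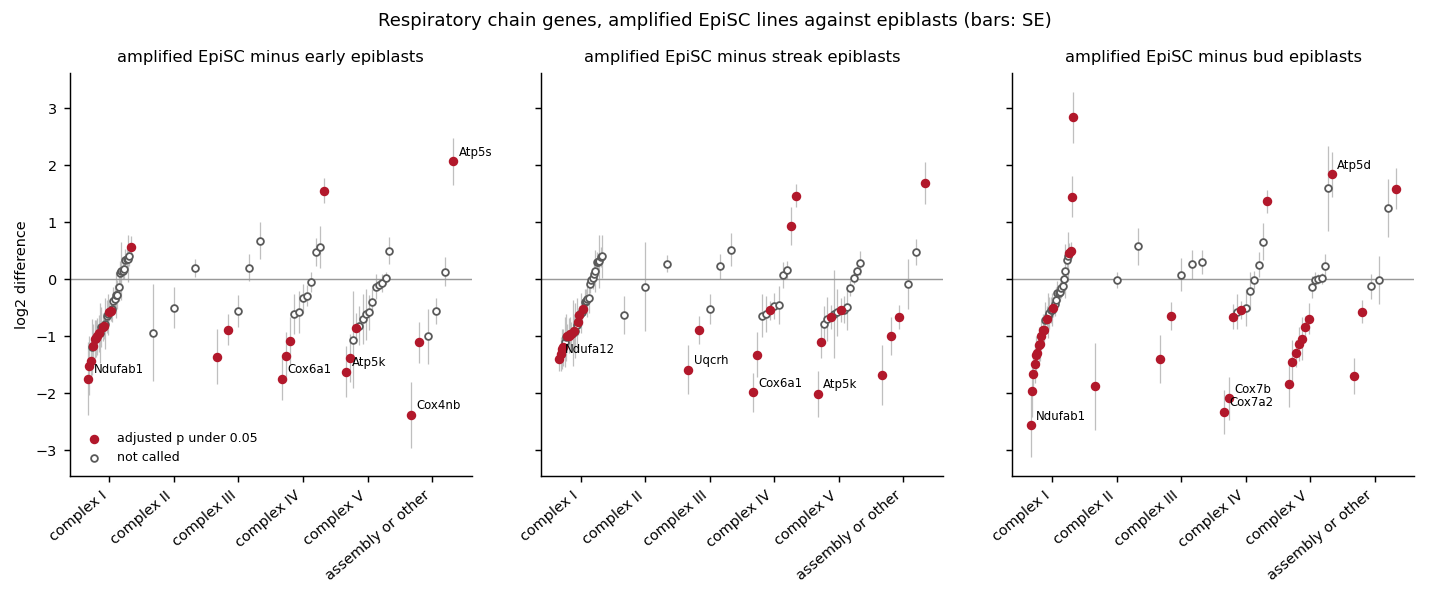
log2 difference of each tested gene (points) with its standard error (bars), amplified EpiSC lines minus early, streak and bud epiblasts, sorted within each complex on the x axis; filled points passed the test at an adjusted p of 0.05. Most points lie below 0, with medians of -0.57, -0.55 and -0.47, and Atp5d (1.84) stands above it against bud.

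Amplification moved many of these genes. On 12 amplified against 12 not amplified arrays of the same 4 lines, with the line in the fit, 20 of 74 genes were higher (27%) and 32 lower (43.2%), beside 44.4% higher and 34.3% lower of the 13141 genes tested. The median log2 difference of the chain was -0.11, against 0.15 for all genes. Atp5l averaged 8.98 ± 0.58 amplified and 13.14 ± 0.08 not amplified (SD, n = 12 each; difference -4.16 ± 0.13), and Atp5f1, detected on 9 of the 12 amplified arrays, 7.34 ± 1.18 and 11.46 ± 0.12 (-4.11 ± 0.26). Ndufc1 (-3.40), Cox7a2l (-3.41), Ndufb7 (-3.07) and Uqcrh (-3.03) were also lower. Ndufb7 was detected on only 4 of the 12 amplified arrays, so its amplified level is mostly background. Uqcrb averaged 10.76 ± 0.31 amplified and 8.29 ± 0.32 not amplified (2.47 ± 0.13), and Ndufa10 (1.26), Atp5g2 (1.11) and Ndufb8 (0.86) were higher. Levels are therefore compared only within 1 kind of array. For 5 genes (Atp5o, Cox4nb, Cox6b1, Ndufb8 and Sdhb) probes were called both ways.

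The genes around the chain are given from lists. Of 18 mitochondrial DNA encoded names, 4 were higher (22.2%, beside 13.1% of all genes) and 0 lower in EpiSC than in ESC, among them MTDNA_COXII (0.57 ± 0.14, adjusted p = 0.00347) and MTDNA_CYTB (0.34 ± 0.09, adjusted p = 0.00533), which encode subunits of complexes IV and III. Against iPSC 3 were higher (16.7%, beside 21.9%) and 0 lower. On amplified arrays 7 of 15 were lower in EpiSC than in early (46.7%, beside 14.9%), 2 than in streak (13.3%, beside 13.1%) and 8 than in bud epiblasts (53.3%, beside 20.9%), with 0 higher. Of 72 genes of the mitochondrial ribosome, which makes those subunits, 1 was higher (1.39%) and 10 lower (13.9%) in EpiSC than in ESC, beside 13.1% and 13.2% of all genes. Against iPSC 7 were higher (9.72%) and 18 lower (25%), beside 21.9% and 20.4%, and against MEF 23 were higher (31.9%) and 2 lower (2.78%), beside 22.3% and 20.9%. Mrps27 was lower than in ESC by -3.22 ± 0.53 and Mrps10 higher than in MEF by 2.87 ± 0.28. Of 70 tested in epiblasts, 0 were higher and 27 lower (38.6%) in amplified EpiSC than early epiblasts, beside 21.8% and 14.9% of all genes. In bud against early 3 were higher (4.29%) and 24 lower (34.3%), beside 17.9% and 16%.

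Among 13 regulators of mitochondrial genes, EpiSC had less Gabpa, the DNA-binding part of GABP, than ESC (-1.83 ± 0.38, adjusted p = 0.00106) and iPSC (-1.06 ± 0.23), and more Tfb1m, a mitochondrial rRNA methyltransferase (4.21 ± 0.64 against ESC and 1.05 ± 0.39 against iPSC). Against MEF, 7 of the 13 were higher and 2 lower in EpiSC, beside 22.3% higher and 20.9% lower of all genes. Among the higher ones was Tfam, which packages mitochondrial DNA, at 1.80 ± 0.31. Of 10 genes of pyruvate entry, Pdk1, the kinase that shuts pyruvate dehydrogenase off, was lower in EpiSC than in ESC (-2.49 ± 0.66) and iPSC (-2.67 ± 0.40) and higher than in MEF (2.54 ± 0.66). Pdhb, a subunit of that dehydrogenase, was lower than in ESC (-1.05 ± 0.22) and iPSC (-0.93 ± 0.13). Of 12 genes of the TCA cycle, 2 were higher and 0 lower in EpiSC than in ESC, beside 13.1% and 13.2% of all genes. The 2 were Ogdh (0.69 ± 0.24) and Dlst (0.65 ± 0.23). Of 14 oxidase assembly genes, 1 was higher in EpiSC than in ESC, beside 13.1% of all genes. Against iPSC 3 were higher and 4 lower, beside 21.9% and 20.4% of all genes. The lower ones included Cox17, the copper chaperone of complex IV (-0.59 ± 0.09). Of 5 cytochrome c and carrier genes, 0 were called against ESC, beside 13.1% higher and 13.2% lower of all genes. Against MEF 2 were higher, beside 22.3%.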

How the data were processed

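RNA was measured on 112 bead arrays. Per the labels' protocols, RNA came from RNeasy columns and was labelled with the TotalPrep kit, after a first round with the MessageAmp II kit for amplified arrays. The authors deposited raw bead intensities, summarised with BeadStudio per the submitters' processing notes, with a detection p-value for each probe from the file's own columns. Array type and genome build are not given in the sources used here. A second deposited table holds log2 values for 31646 of 45281 probes. Its column medians were 6.87 to 6.94, its method and centring stay unknown, and 3 of its 112 columns ranked most like the intensities of another array. It was used as an alternative only. No column of per-sample values was left unused (0).

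Using the detection p-values, neqc of limma 3.58.1 corrected the background, added 16, normalized by quantiles and took log2 (R 4.3.3 with the data.table package, 1.17.8; figures with Python 3.11.15, pandas 2.3.3 and matplotlib 3.10.9). Cultures and sublines were averaged to lines. Not amplified lines entered 1 fit, and 17 embryos with 4 EpiSC line means another. Differences between lines were tested over cultures, and amplification over arrays. Tests were limma's moderated, 2-sided tests with a mean-variance trend, and p-values were adjusted by Benjamini-Hochberg across every gene that entered. ± is the standard error of a log2 difference unless SD is stated. The test of EpiSC against iPSC was also run on simulated line means with independent noise. The other comparisons, the F tests, array sets and amplified arrays were not simulated. Symbols were matched to RefSeq, by which 6 of the 81 genes now have another name. The members and lists were chosen with earlier results of these data known. Named were the 6 highest and 6 lowest called members of a comparison whose higher group detected them on all its arrays, the tissue-restricted isoforms with their paralogs, and in F tests the 5 smallest p. Other members stand as description. A called member is counted but not reported here. Array sets come from 13482 probes not above background. Alternatives were median scaling, separate normalization, other background correction and filters, the deposited values, probe choice, blocks and left-out samples. Array number limits precision.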

Additional observations from a re-analysis of the deposited data

Results flagged for a closer look

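A gap test at the 95% level looked, in 30 groups of 4 to 7 samples, for a single sample far from the rest in the mean of each complex, and chance flags about 1 in 20 such groups. It marked 2 means, both in bud epiblasts and both through the embryo no bud 1. The mean of the 3 tested complex II genes was 8.43 there, and the next lowest bud embryo was at 10.46. Of these 3 genes, Sdhd had an SD of 1.99 over the bud embryos and was detected in 6 of 7 of them. Sdhb and Sdhc were detected in all 7, so 1 gene near background can weigh on this mean. The mean of the 14 complex V genes was 10.91 there, and the next lowest was at 11.36. The share of probes detected in this embryo was 23%, within the bud range of 21.3 to 25.2%.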

How the results depend on the processing

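Over 94 pairs of a named gene and a comparison, 1460 values were computed under alternatives. Of these 1300 kept direction and call, 160 kept direction without the call and 0 reversed. Counts of called genes that moved by over 1.5 times are given here, and the causes were not tested. A fit with the array set as a random block took single cultures as the unit and left the line out. It changed the unit and the block at once. There EpiSC against ESC gave 24 in place of 11, iPSC against ESC 8 in place of 0 and EpiSC9 against EpiSC 18 in place of 0. EpiSC against iPSC gave 16 without iPSC line 1, and iPSC against ESC 5 without iPSC line 3. Leaving out replicates gave 0 to 5 in EpiSC9 against EpiSC, 3 to 30 in bud against early, 5 to 30 in bud against streak, 0 to 1 in streak against early, and for amplified EpiSC 6 to 24 against early, 15 to 30 against streak and 22 to 44 against bud epiblasts. Streak against early gave 3 with median scaling and 2 with no filter, bud against streak 14 with no filter and 8 without early bud 3 and late bud 3, and amplified EpiSC against early 14 with median scaling. Without LMS3, amplified EpiSC gave 16 against early and 16 against streak.

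Replicate numbers did not pair the cultures in general: same-numbered cultures of different lines correlated at 0.0249 in the mean, with a range of -0.275 to 0.608. Of the cultures, 26 of 65 lay closest to their own number, and 0 of 12 pairs of amplified and not amplified arrays correlated over 0.1. In lines PS5, LMS3, LMS4, LMS5, LMS6 and LB3, however, culture 1 was in array set 5 and cultures 2 and 3 in set 1. Leaving out a number there also changes the array sets. With a replicate block, EpiSC against ESC, iPSC and MEF gave 9, 22 and 16 genes, iPSC against ESC and EpiSC9 against EpiSC 0 and 0, lines and sublines 70, and amplified against not amplified 47.

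ESC, MEF and EpiSC9 are 1 line each, so their spread is borrowed from the other groups. Probes near background, as for Cox4i2 and Cox6a2, limit the size of a difference that can be read.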
